A study of Drosophila melanogaster with 9 samples.

Results

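The middle part of P(lacW) is the stretch from position 3634 to position 7161 of the transgene, 3528 of its 10690 positions, read on both strands. It was chosen by position alone, between the sequence shared with the lacZ reporter P(TARGET) and the 3′ part of the transgene, so no measured value selected it. P(lacW) is a P-element transgene that carries lacZ, the white gene and a plasmid backbone, and BX2 is a cluster of 7 copies of it in tandem in an intron of AGO1. The shared sequence runs up to the end of lacZ, and the study's drawn map places lacY, a piece of Hsp70Bb and the larger part of miniwhite after it, in this stretch. Reads of all copies fall on 1 sequence, and all flies were w1118, so that a read of white sequence from the transgene and one from the chromosomal white gene cannot be told apart in the tables.

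Ovarian small RNA was sequenced in 9 libraries. In a first experiment, at 25°C, 1 library each came from BX2OFF with P(TARGET), the inactive state, from BX2theta with P(TARGET), the line activated by high temperature, and from BX2* without the reporter, activated by maternal piRNAs and analysed in an earlier study. In a second experiment, BX2OFF flies without P(TARGET) gave 3 libraries at 25°C and 3 at 29°C, the latter raised at that temperature for 1 generation. In all groups BX2 was kept heterozygous over a balancer chromosome. The deposited positions of the first experiment cover reads of 18 to 29 nt and are marked uni. Those of the second cover reads of 23 to 29 nt and are marked mul, so that levels of both experiments were only set side by side. Reads that matched miRNA numbered 3621703 to 3951462 per library in the first experiment and 6374911 to 8472003 in the second.

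piRNAs are germline small RNAs that guide Piwi-family proteins to silence transposons. They are cut from long transcripts of clusters, often from both strands. In the ping-pong cycle an antisense piRNA guides the cut of a sense transcript, and the new piRNA overlaps its guide by 10 nt at the 5′ ends. Transcription of both strands can also feed Dicer, which makes siRNAs from double-stranded RNA. Counts of 5′ ends by position and strand, as used here, show where along the template such RNAs begin.

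The middle part was densely covered in both active libraries and sparsely in the inactive one. In BX2theta 13562 sense and 7513 antisense reads began in it, in BX2* 8917 and 5300, and in BX2OFF with P(TARGET) 124 and 140. Scaled to 1000000 miRNA reads (miRNA rpm), the level was 5333 in BX2theta (95% Wilson interval 5262 to 5406), 3672 in BX2* (3612 to 3733) and 72.9 in BX2OFF (64.6 to 82.2). The level in BX2theta was thus 73.2 times that in BX2OFF (64.8 to 82.9) and the level in BX2* 50.4 times (44.6 to 57.1). Intervals of single libraries here cover counting error only, since PCR copies are not independent molecules and there was 1 library per genotype.

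The ratio of the active to the inactive library was larger on the sense strand. Sense reads were 100.2 times as abundant in BX2theta as in BX2OFF (84.0 to 121), and antisense reads 49.2 times (41.6 to 58.6). For BX2* the ratios were 67.3 (56.3 to 81.0) and 35.4 (29.9 to 42.2). In the part shared with the reporter this order was reversed in both libraries, at 52.2 for sense and 80.0 for antisense reads in BX2theta and 27.5 and 35.7 in BX2*. The 3′ part had the same order as the middle part, at 88.0 for sense and 37.1 for antisense reads in BX2theta and 49.5 and 28.5 in BX2*. Antisense reads were accordingly 35.6% of the middle part in BX2theta (35.0 to 36.3), 37.3% in BX2* (36.5 to 38.1) and 53.0% in BX2OFF (47.0 to 59.0). The share in the active libraries was set in part by a few abundant positions. Counting occupied positions in place of reads, it was 44.7% in BX2theta and 43.0% in BX2*.

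The middle part was also where BX2theta and BX2* were closest. The level in BX2theta was 1.45 times that in BX2* (1.42 to 1.48), against 2.07 in the shared part (2.02 to 2.11) and 1.58 in the 3′ part (1.54 to 1.62). Sense reads gave a ratio of 1.49 and antisense reads of 1.39 in the middle part, whereas in the 3′ part they gave 1.78 and 1.30, so that for antisense reads the 3′ part was closer. Scaling to genome-matched reads lowered the ratio to 1.30 in the middle part, 1.85 in the shared part and 1.41 in the 3′ part. BX2theta flies carried the reporter and BX2* flies did not, and the effects of reporter and genotype cannot be told apart in these libraries.

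**Figure D1:**
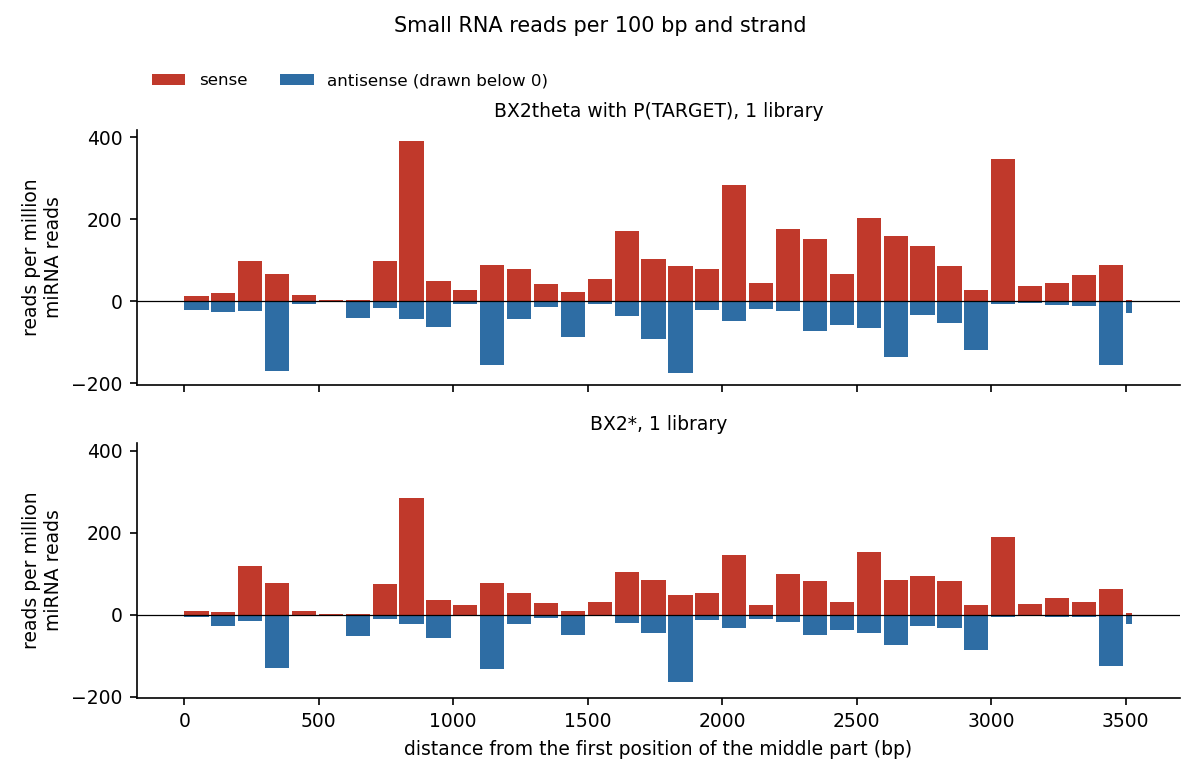
Reads per 1000000 miRNA reads in the middle part (y axis; sense in red above 0, antisense in blue below 0) in bins of 100 bp against distance from its first position, in the BX2theta library with P(TARGET) and the BX2* library. In both libraries the bin with the most sense reads is 4434 to 4533, with 1544 in BX2theta and 1102 in BX2*, and antisense bins stand out at the same distances.

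The reads were spread unevenly along the 36 bins of 100 bp, the last of which holds 28 positions. The fullest bin was 4434 to 4533 in both active libraries, with 1718 reads in BX2theta and 1191 in BX2*. The emptiest was 4134 to 4233, with 19 reads in BX2theta and 18 in BX2*. The 5 fullest bins held 31.6% of the reads in BX2theta and 30.9% in BX2*. Over the 72 strand bins the reads of these libraries ran together, with Spearman's rho of 0.97 and Pearson's r of 0.96, as a description across bins that share a template and are not replicates. Sense and antisense reads of one library did not follow each other as closely, with a rho over 36 bins of 0.34 in BX2theta and 0.24 in BX2*. The region begins in a sparse stretch: its first 100 bp held 141 reads in BX2theta and 58 in BX2*, against 609 and 368 in the 100 bp before it. At the other end, its last 100 bp held 621 and 475 reads, against 1286 and 788 in the 100 bp after it.

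**Figure D2:**
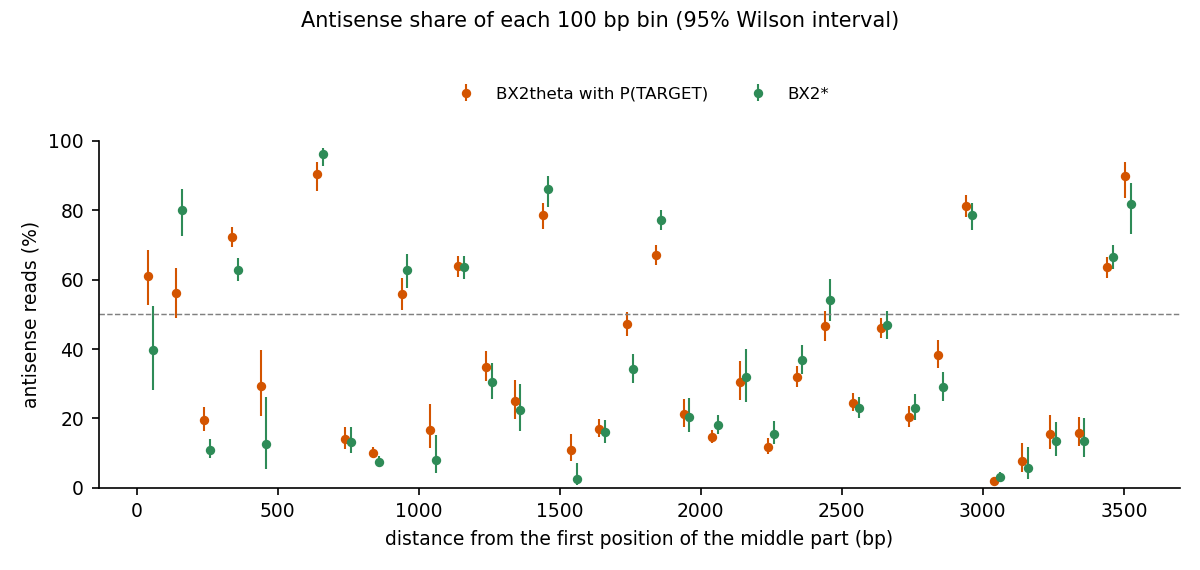
Antisense reads as a percentage of all reads of a 100 bp bin (y axis; bars are 95% Wilson intervals) against distance from the first position of the middle part, for 35 bins with at least 20 reads in both BX2theta (orange) and BX2* (green). The shares range from 2.00% to 90.6% in BX2theta, and BX2* has the same majority strand in 33 of 35 bins.

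Strand dominance changed from one 100 bp bin to the next, and both active libraries had it in mostly the same bins. Of 35 bins with at least 20 reads in each, 22 were mainly sense in BX2theta, with a 95% interval below 50%, 10 were mainly antisense and 3 were neither. BX2* gave the same 3 counts, and 21 bins were mainly sense and 9 mainly antisense in both libraries. No bin was mainly sense in one library and mainly antisense in the other by these intervals, but 2 had a different majority strand. Bin 3634 to 3733 had 61.0% antisense reads in BX2theta (52.8 to 68.7) and 39.7% in BX2* (28.1 to 52.5), intervals that do not overlap, and bin 6034 to 6133 had 46.6% (42.3 to 51.0) and 54.2% (48.1 to 60.1). The antisense shares of the bins had a rho of 0.95 between the libraries and a median absolute difference of 3.82 percentage points. In 8 of the 35 bins the intervals did not overlap, or 22.9%, against 27.1% of all 107 bins of P(lacW), and BX2theta had the higher share in 6 of these 8. The largest difference lay in bin 3734 to 3833, at 56.3% in BX2theta and 80.2% in BX2*. The rest of P(lacW), with the shared and the 3′ part pooled, had 36 of 72 bins mainly sense and 29 mainly antisense in BX2theta, and 30 and 25 in BX2*. By reads, the 3′ part of BX2theta was as sense-biased as the middle part, at 34.9% and 35.6% antisense, against 53.2% in the shared part. In BX2* these shares were 42.2%, 37.3% and 49.1%.

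Ranked by BX2theta, the 3 most antisense bins lay in the first and the last kilobase. Bin 4234 to 4333 held 181 reads in BX2theta, of which 17 were sense and 90.6% antisense (85.5 to 94.1), and 210 in BX2*, of which 8 were sense and 96.2% antisense (92.7 to 98.1). The short bin 7134 to 7161 held 13 and 117 reads in BX2theta (90.0%) and 19 and 85 in BX2* (81.7%). Bin 6534 to 6633 held 108 and 471 reads in BX2theta (81.3%) and 92 and 337 in BX2* (78.6%). In BX2* bin 5034 to 5133, in neither of these kilobases, ranked above both of the latter, with 31 sense and 192 antisense reads (86.1%), against 94 and 345 in BX2theta (78.6%).

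The bin after 6534 to 6633 was the most sense-biased in BX2theta. Bin 6634 to 6733 held 1374 sense and 28 antisense reads in BX2theta, or 2.00% antisense (1.39 to 2.87), and 732 and 24 in BX2*, or 3.17% (2.14 to 4.68). In BX2* bin 5134 to 5233 had a lower antisense share still, at 2.48% (0.847 to 7.04), from 118 sense and 3 antisense reads. An antisense-rich bin and a strongly sense-biased bin lay side by side at 6534 and 6634 in both libraries. Bin 6734 to 6833 followed with 7.74% antisense reads in BX2theta and 5.71% in BX2*, and bin 4434 to 4533 had 10.1% and 7.47%.

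Local peaks, taken as positions with at least 1% of the reads of their strand in the middle part, held about as large a share in both active libraries on the sense strand. BX2theta had 12 sense peaks with 28.8% of the sense reads and 16 antisense peaks with 28.0% of the antisense reads. BX2* had 11 sense peaks with 28.3% and 17 antisense peaks with 37.2%. The libraries had 9 sense peaks in common, which was 9 of 12 and 9 of 11, and 16 antisense peaks, which was all 16 of BX2theta and 16 of 17 of BX2*. Peaks included, 1315 sense and 1064 antisense positions were occupied in BX2theta, and 1101 and 830 in BX2*. Of these, 856 sense and 615 antisense positions were occupied in both libraries, and they held 92.0% of the sense and 87.3% of the antisense reads of BX2theta.

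The most abundant position of the middle part was sense position 6665, with 881 reads in BX2theta, 518 in BX2* and 3 in BX2OFF with P(TARGET). It held 6.50% of the sense reads in BX2theta (6.09 to 6.92), 5.81% in BX2* (5.34 to 6.31) and 2.42% in BX2OFF (0.826 to 6.87). None of the 6 BX2OFF libraries without the reporter had a read there. Over their 269 pooled sense reads this allows a share of up to 1.12% if reads are independent. These reads sat on 67 positions, so that the limit may be higher. The lengths of the reads at this position are not in the tables, and the second experiment left out reads under 23 nt.

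The next sense peaks kept similar ranks in both libraries but not similar ratios. Position 6155 held 479 reads in BX2theta and 464 in BX2*, none in BX2OFF with P(TARGET), and 4 in 1 of the 6 libraries without it. Position 5290 held 424 and 265 reads and none in any BX2OFF library. Position 4458 held 305 reads in BX2theta and 433 in BX2*, with a ratio of levels of 0.69 (0.59 to 0.80), so that BX2* had the higher level there. Position 6277 differed the other way, with 323 and 93 reads and a ratio of 3.40 (2.69 to 4.33). Position 5654, the fifth in BX2*, held 298 reads in BX2theta and 157 in BX2*, 1 in BX2OFF with P(TARGET) and 5 in each of 2 libraries without it. Around 4458 the 5′ ends were spread over neighbours, and the 5 positions centred on it held 609 reads in BX2theta and 643 in BX2*, which is nearly the same number although the central position differed.

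On the antisense strand, position 4011 ranked first in both active libraries. It held 350 reads in BX2theta (4.66% of antisense reads, 4.20 to 5.16), 231 in BX2* (4.36%, 3.84 to 4.94) and 1 in BX2OFF with P(TARGET). It was also occupied in 4 of the 6 BX2OFF libraries without the reporter, with 5 and 3 reads in 2 libraries at 25°C and 4 and 1 in 2 at 29°C. Several antisense peaks stood close together. Position 4004, 7 nt from 4011, held 123 reads in BX2theta and 183 in BX2*. Positions 5526 and 5529 held 134 and 131 reads in BX2theta and 179 and 175 in BX2*, a ratio of 0.73 at both.

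Positions 4783 and 4790 formed another such pair, with 156 and 103 reads in BX2theta and 78 and 140 in BX2*, so that their order was exchanged between the libraries. Antisense position 6258 held 236 reads in BX2theta and 70 in BX2*, a ratio of 3.30 (2.52 to 4.38), and no read in any BX2OFF library. It lies 19 nt upstream of sense position 6277, which had a like ratio. Reads that begin at these positions extend away from each other and do not overlap. Of the 13 positions named here by rank, 6 sense and 7 antisense, 6 had a read in BX2OFF with P(TARGET) and 8 in at least 1 library of the second experiment.

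Differences between BX2theta and BX2* in single strand bins were mostly small. Among 70 strand bins of the middle part with at least 20 reads over both libraries, the level in BX2theta was at least 2-fold higher in 11, or 15.7%, while over all 214 strand bins of P(lacW) this share was 38.8%. No strand bin of the middle part was at least 2-fold lower in BX2theta, as over all bins (0%). The median ratio was 1.51, with 65 of 70 strand bins above 1. Antisense bin 5134 to 5233 had the highest ratio, at 8.82 (2.71 to 45.4), from 27 and 3 reads. The best covered of the 11 bins were antisense bin 5334 to 5433, with 368 and 170 reads and a ratio of 2.12 (1.76 to 2.56), and sense bin 6034 to 6133, with 267 and 121 reads and 2.16 (1.74 to 2.70). The count depended on scaling. Relative to each library's P(lacW) reads, 3 strand bins were at least 2-fold higher and 3 at least 2-fold lower in BX2theta, each 4.29% of 70. Over all 214 strand bins these shares were 6.54% and 2.80%. The median ratio of the middle part was then 0.89.

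**Figure D3:**
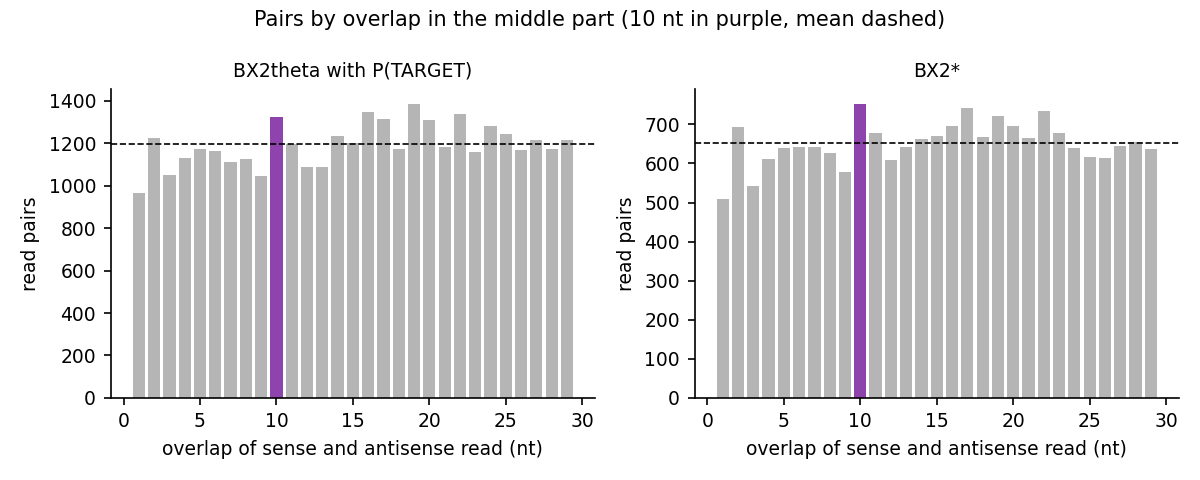
Pairs of sense and antisense reads (y axis) by the overlap of their 5′ ends in nt (x axis) within the middle part, in the BX2theta library with P(TARGET) and in the BX2* library. The purple bar is 10 nt, with 1323 pairs in BX2theta and 753 in BX2*, and the dashed lines are the means over 1 to 29 nt, 1195 and 652.

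The 10 nt overlap within the middle part had the highest count in BX2* but not in BX2theta, where 3 other overlaps had more. Pairs were counted as the smaller of the sense and antisense read numbers at each offset, and the z-score is the distance from the mean over overlaps of 1 to 29 nt in units of their SD. In BX2*, 753 pairs overlapped by 10 nt against a mean of 652, an excess of 15.5% and a z-score of 1.85, with 577 pairs at 9 nt and 677 at 11 nt. In BX2theta there were 1323 pairs at 10 nt against a mean of 1195, an excess of 10.7% and a z-score of 1.29, with 1047 at 9 nt and 1198 at 11 nt. The highest count in BX2theta was 1387 at 19 nt, followed by 1347 at 16 nt and 1339 at 22 nt. The overlap of 19 nt is the one that both strands of a Dicer product share. The tables of positions hold siRNA-sized and piRNA-sized reads together, and the part of either in these counts was not tested.

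The z-score at 10 nt depended on how pairs were counted. With every pair of positions counted once it was -0.030 in BX2theta, on the other side of the mean, and 1.26 in BX2*, and with pairs as products of read numbers it was 0.76 and 0.72. In the shared part the z-scores were 2.08 in BX2theta and 1.70 in BX2*, and in the 3′ part 1.32 and 1.86. BX2OFF with P(TARGET) had 5 pairs at 10 nt in the middle part against a mean of 3.45, and the 6 libraries without the reporter had none at 10 nt among 76 pairs of any overlap, a number too small to show an excess.

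Few of the 10 nt pairs involved a peak, but peaks were also few among the occupied positions. They were 12 of 1315 sense and 16 of 1064 antisense positions in BX2theta, and 11 of 1101 and 17 of 830 in BX2*. Whether these pairs held fewer peaks than that number gives was not tested. In BX2theta 463 pairs of positions contributed, 10 of them with a peak on at least one strand, which gave 50 pairs or 3.78%, and the 5 largest gave 103 of the 1323 pairs, or 7.79%. In BX2* 324 contributed, 10 of them with a peak, which gave 49 pairs or 6.51%, and the 5 largest gave 11.0%. The largest in BX2theta joined sense position 4837 with 48 reads and antisense position 4846 with 29, which held 11 and 7 reads in BX2*. The largest in BX2* joined sense position 6530 with 72 reads and antisense position 6539 with 26, which held 30 and 14 reads in BX2theta. Among the 5 largest, 2 were in both libraries, 6307 with 6316 (18 pairs in BX2theta and 16 in BX2*) and 6521 with 6530 (19 and 13). Most members of these pairs were no peaks of their strand. The exceptions were sense position 3856, with 112 reads in BX2*, and antisense position 4787, with 69.

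**Figure D4:**
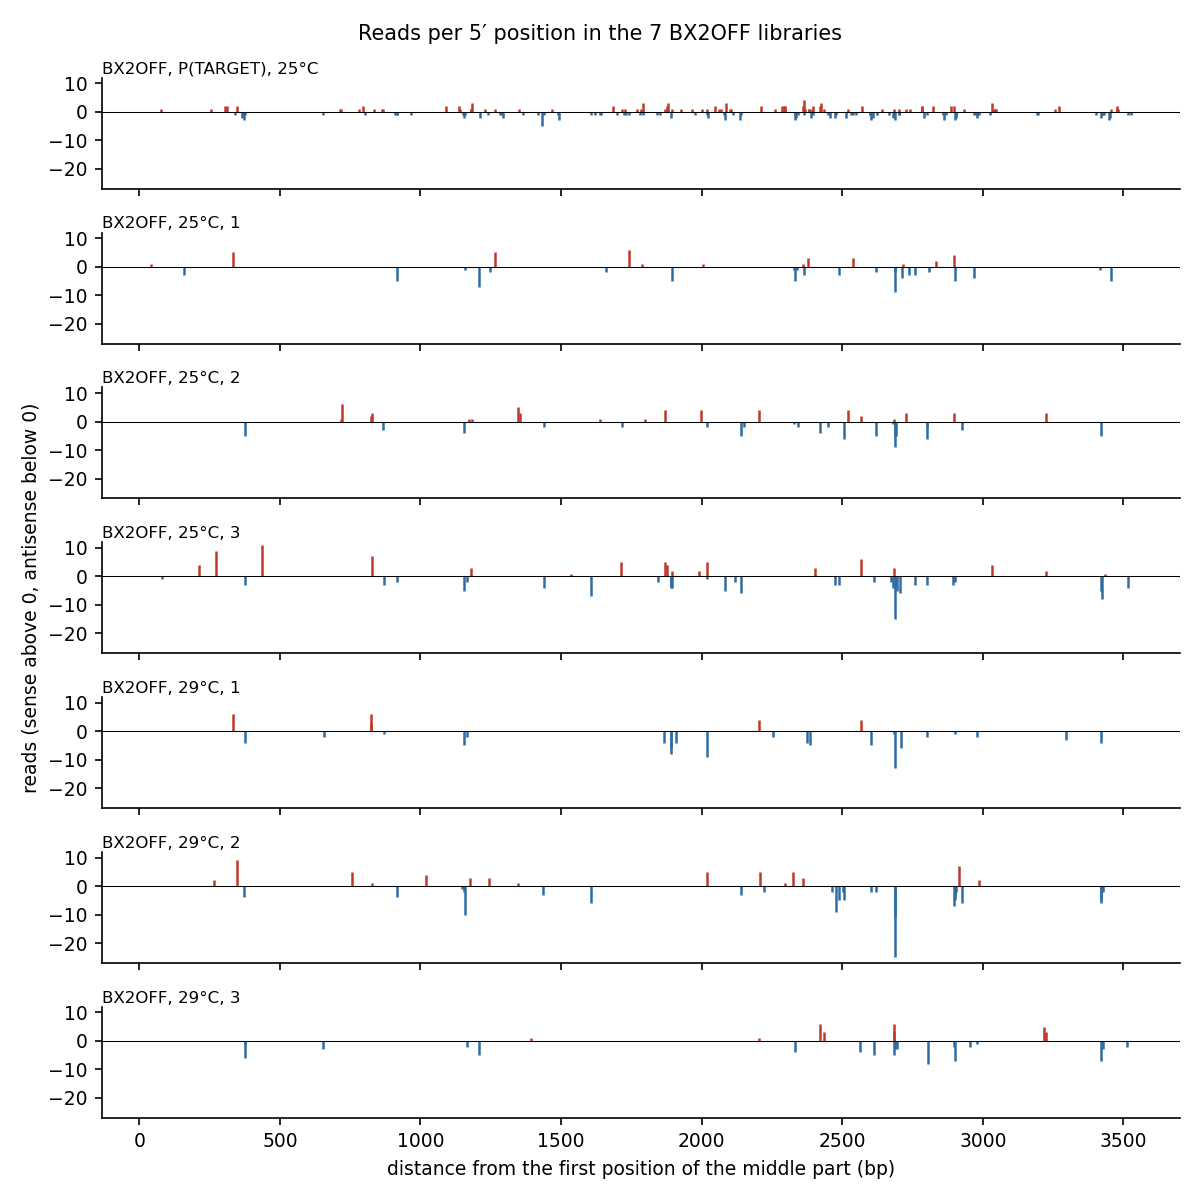
Reads per 5′ position (y axis; sense in red above 0, antisense in blue below 0) against distance from the first position of the middle part, in the BX2OFF library with P(TARGET) and in the 6 BX2OFF libraries without it. The 6 libraries hold 27 to 50 occupied positions each, and the tallest line, 25 antisense reads in the second library at 29°C, lies where all 6 have reads.

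In the 6 BX2OFF libraries without P(TARGET) the middle part held few reads of 23 to 29 nt, and most were antisense. At 25°C the libraries had 33, 52 and 77 sense and 78, 81 and 125 antisense reads. At 29°C they had 23, 56 and 28 sense and 93, 134 and 74 antisense reads. Antisense reads exceeded sense reads in all 6 libraries. The level was 13.7 to 28.0 miRNA rpm at 25°C and 16.0 to 22.4 at 29°C. These reads sat on 27 to 50 positions per library with a median of 3 or 4 reads each, whereas BX2OFF with P(TARGET) had 264 reads on 183 positions, 67.2% of them with a single read. Of 175 positions occupied in any of the 6 libraries, 140 (80.0%) were occupied in only 1. In the rest of P(lacW) this held for 222 of 259 positions (85.7%), so that low recurrence was not particular to the middle part.

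The positions that recurred in most of these libraries were antisense. Positions with reads in at least 4 of the 6 were antisense 4011, 6323 and 7053, and of these only 6323 had reads in all 6. The rest of P(lacW) had 5 positions with reads in at least 4 of the 6, on both strands, and none with reads in all 6. Sense position 6319 recurred in 3 libraries, with 1, 3 and 3 reads. Position 7053 held 5 reads in 1 library at 25°C and 4, 5 and 7 at 29°C, none in BX2OFF with P(TARGET), 12 in BX2theta and 6 in BX2*. Bin 6234 to 6333, which contains 6323, held 13 sense and 145 antisense reads over the 6 libraries, or 24.8% of their antisense reads in the middle part. Its share in single libraries was 16.7% to 30.9% at 25°C and 20.4% to 29.9% at 29°C, so that it was not set by 1 library. In the first experiment the same bin held 8.57% of the antisense reads in BX2OFF with P(TARGET), 7.20% in BX2theta and 5.40% in BX2*. Neither 6323 nor 7053 was a peak in the active libraries, where 6323 ranked 44th in BX2theta and 31st in BX2*.

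Some bins that were mainly sense in the active libraries were mainly antisense in the pooled reads of these 6. Of 14 bins with at least 20 reads over the 6 libraries, 12 had more antisense than sense reads, compared to 5 in BX2theta and 6 in BX2*. By the 95% interval, 9 of the 14 were mainly antisense in the 6 libraries and 1 was mainly sense. The same count was not made for the rest of P(lacW), where these libraries had lower antisense shares, so that 9 of 14 has no background. Well covered bins of the rest lay on both sides. Bin 7162 to 7261 held 88 sense and 13 antisense reads, and bin 7562 to 7661 held 5 and 80. Bin 6334 to 6433 held 4 sense and 25 antisense reads (86.2% antisense, 69.4 to 94.5) against 20.4% in BX2theta and 23.1% in BX2*. Its antisense reads came from 3 of the 6 libraries, with 10, 9 and 6 reads. Intervals over the 6 libraries pool their reads as if independent and do not cover the spread between libraries. Bin 7034 to 7133 held 1 and 51 reads (98.1%, 89.9 to 99.7) against 63.6% and 66.7%, and was thus mainly antisense in the active libraries too. Bin 4434 to 4533, the fullest of the active libraries, was mainly sense here too, with 22 and 7 reads, and bin 6134 to 6233 held 19 and 17. Read lengths and the uni or mul marking differ between the experiments, and positions with several copies weigh more in sparse libraries. The part of each in these shares was not tested.

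The positions that were occupied in the inactive libraries were largely positions that the active libraries also used. Of the 183 positions in BX2OFF with P(TARGET), 171 (93.4%) were occupied in BX2theta, where 33.7% of all positions were, and 88.5% in BX2*, where 27.4% were. These 171 positions were 7.19% of the occupied positions of BX2theta. In the 6 libraries without the reporter, 77.1% to 95.1% of the occupied positions were occupied in BX2theta. The positions of BX2OFF with P(TARGET) were also well filled in BX2theta, with a median of 16 sense and 6 antisense reads, against medians of 3 and 2 over all its occupied positions. The shares were similar outside the middle part, at 83.9% in the shared part and 86.5% in the 3′ part. Base composition and shared sequencing runs were not examined, and their part in this overlap was not tested.

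**Figure D5:**
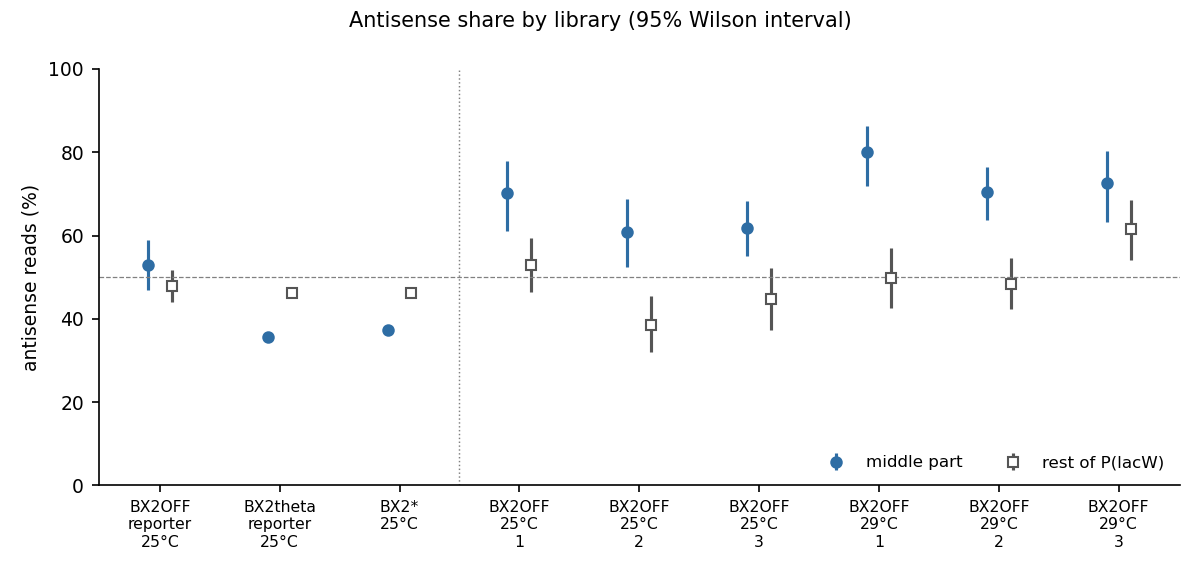
Antisense reads as a percentage of all reads (y axis; bars are 95% Wilson intervals) in the middle part (blue circles) and in the rest of P(lacW) (open squares) for each of the 9 libraries. The middle part lies above the rest in the 6 BX2OFF libraries without P(TARGET), right of the dotted line, and below it in BX2theta and BX2*.

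Within the 6 libraries the middle part was more antisense than the rest of P(lacW). At 25°C the libraries had 70.3%, 60.9% and 61.9% antisense reads in the middle part, against 52.9%, 38.5% and 44.7% in the rest. At 29°C the shares were 80.2%, 70.5% and 72.5% in the middle part, against 49.7%, 48.4% and 61.5% in the rest. The difference was 20.1 percentage points on average (SD 6.56, n = 6), positive in 6 of 6 libraries, with an exact two-sided sign-flip permutation p of 0.031 (0.031 after Benjamini-Hochberg adjustment over 2 tests), the smallest that 6 libraries allow. Without position 6323 it was 17.4 points, with each occupied position counted once it was 13.5, and each also had p = 0.031 in this exact test. Against the shared part alone the difference was 19.8 points and against the 3′ part alone 20.3. In BX2theta the middle part was 10.6 points below the rest and in BX2* 8.83 points below. The direction in BX2theta rested on the shared part, with 53.2% antisense reads, since the 3′ part had 34.9% against 35.6% in the middle part. In BX2* the middle part, at 37.3%, lay below both, at 49.1% in the shared part and 42.2% in the 3′ part. BX2OFF with P(TARGET) was 5.22 points above.

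The middle part also held more reads per length than the rest in these libraries, though hardly more in the first at 25°C. In that library it was 31.5 against 31.4 reads per kb. Position 6323 held 9 of its 111 reads in the middle part, and the density ratio was not recomputed without this position. The log2 ratio of densities was 0.002, 0.49 and 1.27 at 25°C and 0.40, 0.64 and 0.29 at 29°C, with a mean of 0.51 (SD 0.43, n = 6) and an exact sign-flip p of 0.031 (adjusted 0.031). Against the shared part alone the mean was 0.80, and against the 3′ part alone it was 0.26 with an exact p of 0.156. In the first experiment the log2 ratio was -0.25 in BX2OFF with P(TARGET), -0.02 in BX2theta and 0.33 in BX2*. The tests compare regions within libraries. Nothing in the labels says that the libraries of one temperature came from separate cultures, so that the p-values cover these libraries only. With all 6 differences of 1 sign, the exact sign-flip test gives a p of 0.031 whatever their size or spread.

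The level of the middle part and its share of the P(lacW) reads overlapped between the temperatures, and with 3 against 3 libraries the exact test cannot give a p below 0.10. The level, in reads per 1000000 genome-matched reads (Dmel rpm), was 3.38, 4.16 and 6.44 at 25°C and 3.69, 5.21 and 3.79 at 29°C. Its means were 4.66 ± 1.59 and 4.23 ± 0.85 (SD, n = 3), with an exact two-sided permutation p of 0.70 (adjusted over 3 tests, 0.80). Sense reads had a mean of 1.69 Dmel rpm at 25°C and 1.10 at 29°C, and antisense reads 2.96 and 3.13. The direction of the level rested on the third library at 25°C, without which the difference was 0.46 Dmel rpm higher at 29°C. The middle part held 42.8% ± 10.8 of the P(lacW) reads at 25°C and 40.1% ± 2.95 at 29°C, with an exact permutation p of 0.80 (adjusted 0.80), and again the third library at 25°C, at 54.3%, decided the direction: without it the share was 3.13 points higher at 29°C.

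The antisense share of the middle part was the measure in which the temperatures did not overlap, by a narrow margin. It was 64.4% ± 5.15 at 25°C and 74.4% ± 5.09 at 29°C (SD, n = 3), a difference of 10.1 points with an exact permutation p of 0.10, the smallest that 3 against 3 libraries allow, and an adjusted p of 0.30. The highest library at 25°C had 70.3% and the lowest at 29°C had 70.5%. Counted by occupied positions the libraries at 25°C had 53.7% to 65.7% and those at 29°C had 63.4% to 81.5%, which overlap, with an exact p of 0.30. Without position 6323 the groups overlapped as well, with an exact p of 0.20.

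No strand bin passed the test for temperature. Of 27 strand bins of the middle part with at least 12 reads over the 6 libraries, limma on log2(Dmel rpm + 0.1) called none with Benjamini-Hochberg adjustment over 64 strand bins of P(lacW), of which 0% were called, and none had an unadjusted p under 0.05. The lowest adjusted p was 0.94. The bin with the lowest p was sense bin 5334 to 5433, with a log2 difference of -1.14 (29°C minus 25°C, SE 0.66). The SE was the same in all 64 strand bins, since limma moderated their variances to 1 common value. With an SE of this size, changes of 2-fold were not detectable.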

How the data were processed

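Adapters were removed by the authors, who used Bowtie for alignment (the submitters' processing notes name Bowtie2 2.0.3), allowed at most 1 mismatch and tabulated 5′ ends by strand. The deposited values are a signed score, reads multiplied by 1 factor per library, marked uni in the first experiment and mul in the second. Dividing by the factor gave whole reads (within 0.1) for 100% of the values, although the design had assumed rpm. Library totals are those the study lists. Overlaps of 10 nt gave the most pairs at the 42AB cluster, which fixed how antisense coordinates are read.

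The members and lists were chosen with earlier results of these data known. Bins of 100 bp were counted from position 3634 outwards. Named were the 5 fullest positions per strand, the 3 highest and lowest bins by antisense share in BX2theta, the 5 largest 10 nt pairs, and positions occupied in at least 4 of 6 BX2OFF libraries. Other positions and bins were chosen after their values were seen. A position with no read was given the limit of 3 reads. That the study's numbering of the shared sequence is that of the tables was assumed, and the sequence of P(lacW) was not used here. Pair counting and limma were tested on simulated data. Software was limma 3.58.1 in R 4.3.3, and scipy 1.17.1, numpy 2.4.6, matplotlib 3.10.9 and pandas 2.3.3 in Python 3.11.15. Alternatives were other scalings, bins, filters, pair counts, trimmed ends and left-out libraries. The 6 by occupied positions or without position 6323 were chosen after seeing the data.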

Additional observations from a re-analysis of the deposited data

Results flagged for a closer look

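The antisense share of the middle part relative to the rest of P(lacW) went in opposite directions in different libraries. It was 20.1 percentage points higher on average in the 6 BX2OFF libraries without P(TARGET), and higher in each of them, whereas it was 10.6 points lower in BX2theta (-10.6) and 8.83 points lower in BX2* (-8.83). In BX2theta this held against the shared part (53.2% antisense) but not against the 3′ part (34.9%, with 35.6% in the middle part), whereas in BX2* the middle part (37.3%) was below both (49.1% and 42.2%). The difference between these groups was not tested, since the active states have 1 library each and their tables cover other read lengths. Their values are also marked uni and those of the 6 libraries mul, and BX2theta carried the reporter.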

How the results depend on the processing

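Of 90 values computed under alternatives, 61 were labelled the same as the main value, 13 weaker, 13 moved and 3 reversed. Tested values were labelled by direction and side of the threshold, and values without a test by sign and distance from the main value. No paired analysis was possible because the labels give no replicate numbers. Without the third library at 25°C the temperature difference of the level (range over left-out libraries -1.07 to 0.46 Dmel rpm) and of the share of P(lacW) reads (-7.50 to 3.13 points) changed sign. With 1 library left out the smallest sign-flip p is 0.0625, so the antisense difference to the rest (18.0 to 21.9 points) and the density log2 ratio (0.36 to 0.62) could not pass, and the latter was 0.26 against the 3′ part alone. The ratio of BX2theta to BX2* was 1.30 with genome-matched scaling. The antisense share was 38.5% in BX2theta and 39.9% in BX2* with positions capped at the 99th percentile, 44.7% and 43.0% by occupied positions, and 34.9% in BX2theta with 100 bp trimmed from each end. The z-score at 10 nt was -0.030 in BX2theta with each pair of positions once, and 0.72 in BX2* with products. Strand bins at least 2-fold higher in BX2theta numbered 11, but 7 with genome-matched scaling, 3 (and 3 lower) relative to P(lacW) reads, 32 of 127 in bins of 50 bp, 4 of 36 in bins of 200 bp and 7 with at least 50 reads. The cause of these shifts was not tested. Depth limits the 6 BX2OFF libraries, where 102 to 202 reads lay in the middle part and 3 reads are 1.49% to 2.94% of them.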

Other observations

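Some distances between 5′ ends of the same strand gave more pairs than others in the middle part. Between 20 and 40 nt, the distance between 5′ ends that gave the most sense pairs was 28 nt in both active libraries, with 1837 pairs in BX2theta against a mean of 1585 over these distances and 997 in BX2* against 877. The most antisense pairs lay at 29 nt in both, with 1066 in BX2theta against a mean of 854 and 659 in BX2* against 450.2. The next distance had 1022 and 597 antisense pairs. Antisense peaks 5500 (96 reads in BX2theta and 110 in BX2*) and 5529 (131 and 175) lie 29 nt apart. The part of this pair of peaks in the count was not tested. In the shared part, antisense pairs were most frequent at 26 nt in both libraries, whereas sense pairs were most frequent at 24 nt in BX2theta and 38 nt in BX2*. In the 3′ part the distances were 31 and 30 nt for sense and 24 and 25 nt for antisense pairs. The distances were examined after the data had been seen, and no test was made.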
